A study of Mus musculus with 14 samples.

Results

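MHC class I antigen presentation and interferon response genes were examined in 14 red fluorescent cells picked from digested adult mouse bone. The genes were chosen by their symbols: those beginning with H2-, Ifi, Isg, Oas, Gbp, Tapbp or Ifn, numbered Irf, Stat and Tap genes, B2m and Bst2, leaving out the osteoblast gene Ifitm5. This rule found 55 of the 9558 rows of the table. The mice were adult, of the C57BL/6 strain and of the genotype Prrx1-CreERT;Tomato, in which a tamoxifen-dependent Cre recombinase made under the Prrx1 promoter switches on the Tomato reporter. All cells had the same treatment, tamoxifen at 2 mg per 30 g of body weight once a day for 3 days. A red cell therefore marks use of the promoter while tamoxifen acted, in the cell itself or in a cell it came from, and no untreated or unrecombined cells were compared. The labels name no animal, so the 14 cells, numbered as in the labels, count as 1 sample. No test between conditions was possible, and each level is that of 1 library per cell.

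The name class I holds only in part for these genes. The GRCm38 annotation (GENCODE M21) has 45 genes whose symbol begins with H2-, 34 of them protein-coding, and 0 of them had a row in the table by symbol or by gene ID. The class I heavy chains and all class II chains were therefore not analysed here. The class I side consisted of B2m, the light chain, and of Tap1, Tap2, Tapbp and Tapbpl, which serve peptide transport and loading. The other genes were 1 interferon gene, 5 interferon receptor genes, 6 Stat genes, 6 Irf genes, 5 Ifitm genes, 19 other interferon-induced genes and 5 Gbp genes. Irf2bp1, Irf2bp2 and Irf2bpl encode IRF2-binding proteins and fell under the rule by name alone.

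Class I molecules show peptides from inside the cell to T cells. Peptides cut by the proteasome are pumped into the endoplasmic reticulum by the transporter made of TAP1 and TAP2, tapasin (Tapbp) loads them, and a heavy chain reaches the surface only with beta-2 microglobulin (B2m). Interferons act through receptors and JAK kinases on STAT proteins. Type I interferon leads to a complex with STAT2 and IRF9, which binds the interferon-stimulated response element (ISRE), and interferon gamma acts through the gamma-activated site (GAS).

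The promoters of these genes were read first, since the study measured levels and not binding. The RefSeq promoter table (GRCm38.p6, 250 bases before to 50 after each start) held 47 of the 55 genes. Ifi204, Ifi27, Ifi27l2a, Oas1b, Oas2, Tap2 and Tapbpl were among those without an entry. An ISRE-like match, 2 copies of GAAA separated by any 2 bases, on either strand, was present in 17 of the 47 genes (36.2%), against 3.66% of the 7368 genes of the table with an entry. A GAS-like match, TTCNNNGAA, which reads the same on both strands, was present in 14 of the 47 (29.8%), against 8.12%. All 5 Gbp genes held the ISRE-like letters, as did 7 of the 14 other interferon-induced genes with an entry, B2m, Ifitm2, Ifitm3, Irf2 and Stat2. None of the 5 interferon receptor genes did. A match of letters is a description and not a binding site, and 5 genes (Bst2, Gbp5, Gbp7, Ifitm3 and Irf2) held both kinds. In Bst2 and Ifitm3 the GAS-like match shares bases with an ISRE-like match.

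The 250 bases before the start of B2m are shown whole because B2m had the highest median of the 55 genes. Below them are windows around the matches of genes that differed in which cells they were found in. Capitals mark ISRE-like matches, and in Irf1 the GAS-like match. Each sequence runs 5′ to 3′ on the strand of its gene (RefSeq, GRCm38.p6).
B2m (chr2:122147437-122147686, plus strand): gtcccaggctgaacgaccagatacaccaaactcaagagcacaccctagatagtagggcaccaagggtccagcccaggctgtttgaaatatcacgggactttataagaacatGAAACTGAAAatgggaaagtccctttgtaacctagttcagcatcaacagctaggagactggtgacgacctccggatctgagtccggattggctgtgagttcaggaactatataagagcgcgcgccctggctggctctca
Isg15 (chr4:156200850-156200921, minus strand): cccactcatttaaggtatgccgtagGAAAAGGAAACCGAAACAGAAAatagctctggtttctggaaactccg
Ifit3 (chr19:34583348-34583441, plus strand): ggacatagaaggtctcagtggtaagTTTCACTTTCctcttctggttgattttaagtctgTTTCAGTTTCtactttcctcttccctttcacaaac
Ifit3b (chr19:34607744-34607837, plus strand): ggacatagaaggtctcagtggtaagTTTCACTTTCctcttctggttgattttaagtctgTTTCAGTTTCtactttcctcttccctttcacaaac
Gbp2b (chr3:142594685-142594744, plus strand): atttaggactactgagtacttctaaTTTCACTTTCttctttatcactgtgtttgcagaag
Bst2 (chr8:71537562-71537627, minus strand): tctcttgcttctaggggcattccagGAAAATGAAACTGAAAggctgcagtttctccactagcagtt
Stat2 (chr10:128270251-128270310, plus strand): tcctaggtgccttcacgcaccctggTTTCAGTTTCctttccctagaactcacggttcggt
Irf1 (chr11:53769899-53769957, plus strand): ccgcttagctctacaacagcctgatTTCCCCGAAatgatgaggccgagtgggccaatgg
Isg15 held 3 overlapping ISRE-like matches, Bst2 held 2 overlapping ones, and Ifit3 and Ifit3b held 2 separate ones. The windows of Ifit3 and Ifit3b were identical over 94 bases.

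Markers of blood cells were high in some of these cells. A leukocyte list of 12 measured genes, among them Ptprc, Tyrobp, Lyz2 and Cd14, had a mean of 9.52 for cell 14 and 7.55 for cell 11, while the other 12 cells ranged from 1.01 to 5.84. All 12 were detected in cell 14, 10 in cell 11 and 5 to 10 in the others. Of these genes Cd68 was at 0 in cells 3, 4 and 13, Itgam in cells 4, 11 and 12, and Cd53 in cell 10. The neutrophil list (8 genes) had a mean of 10.18 in cell 6, its highest, and its next highest means, 9.07 and 8.72, belonged to cells 14 and 11. In this list Mpo and Elane peaked in cell 6, with levels of 11.25 and 8.13. Camp, Ngp, Retnlg, Ltf, Lcn2 and Mmp8 each peaked in cell 11 or 14. A mesenchymal stroma list of 11 genes, including Prrx1, Pdgfra and Dcn, had its lowest mean in cell 14, at 4.21, and 5.67 to 10.07 in the 13 others. By which other rows were at 0, cells 3, 4, 11, 12 and 13 formed one set and the remaining 9 cells another, a division found in the values and given by no label. Of the 55 genes, Ifit2 (1.82%) was above 0 in the smaller set alone, against 1.6% of all rows. Gbp2b, Ifnb1, Ifnlr1 and Stat5b (7.27%) were above 0 in the larger set alone, against 4.45%.

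Levels are given on the deposited scale, read as log2 of quantile-normalized FPKM plus 1. Quantile normalization makes a level a rank within its cell. A gene was called detected, or found, in a cell at a level of 1 or more. Of the 55 genes, 26 (47.3%) were detected in at least 7 cells, against 51.7% of all rows. In all 14 cells 14 genes (25.5%) were detected, against 15.8% of all rows, and 7 genes (12.7%) were detected in 1 cell only, against 7.33%. The median over the genes of their median level was 0.74, against 0.96 over all rows. When any value above 0 counted as detection, 43.6% of the genes and 46.0% of all rows were found in all 14 cells, so the higher share of genes found everywhere depended on the detection level.

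**Figure D1:**
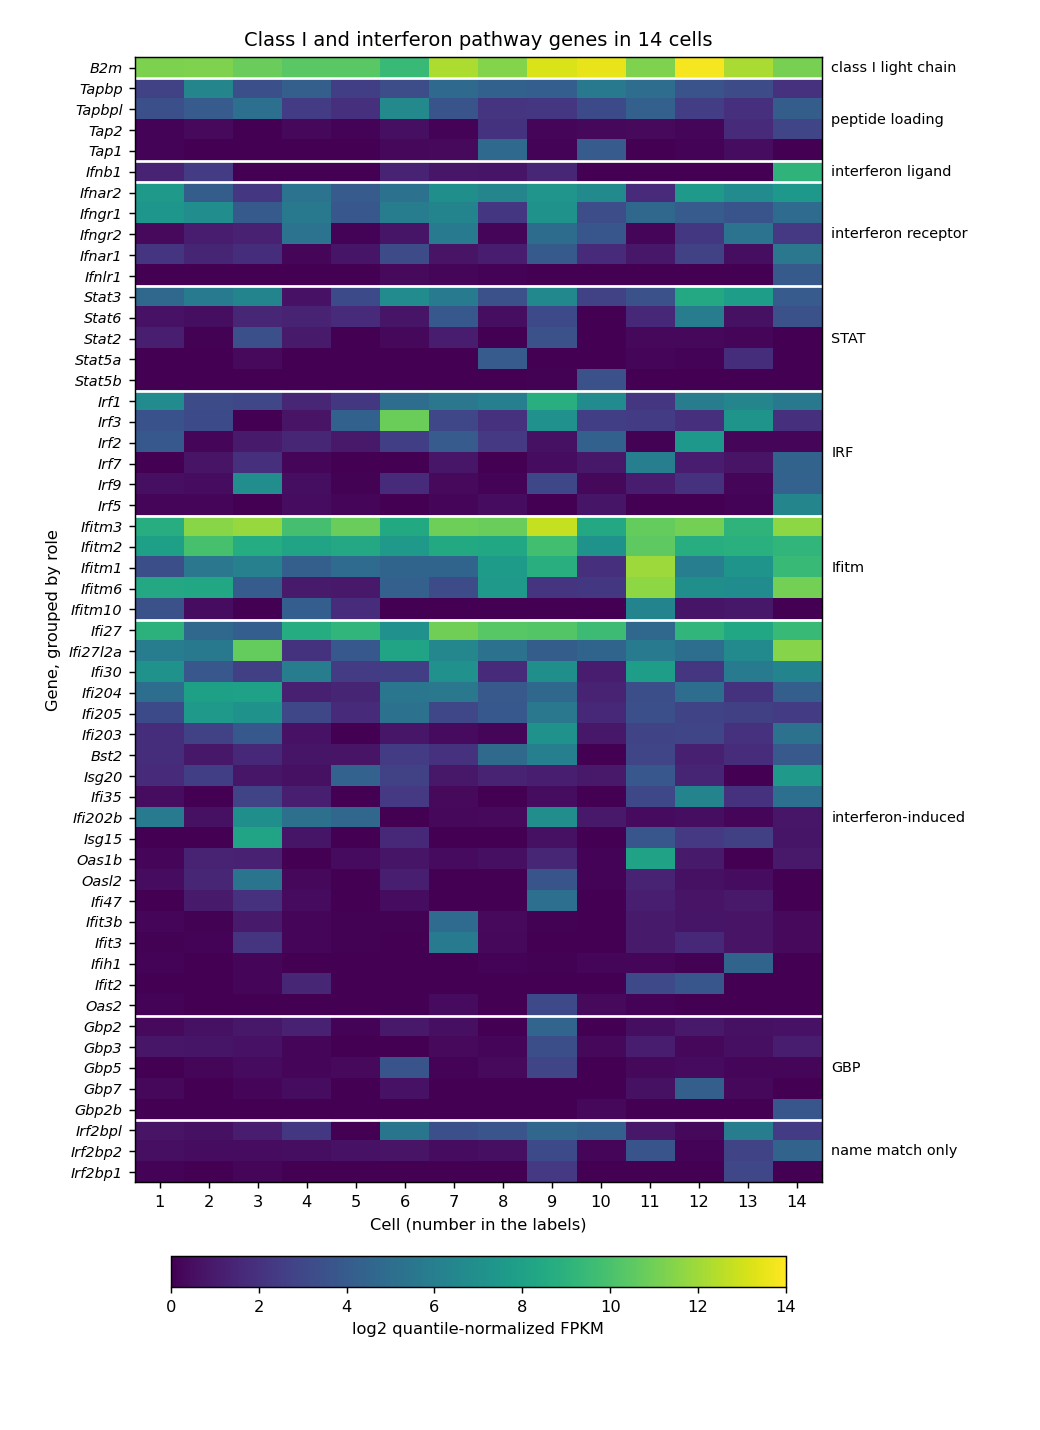
Level of the genes (rows, grouped by role and ordered by median) in each of the 14 cells (columns), coloured by log2 quantile-normalized FPKM. B2m, Ifitm3 and Ifitm2 are high in every cell, whereas each of the 5 Gbp genes reaches the detection level in 1 to 3 cells.

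B2m (ENSMUSG00000060802, chromosome 2, 122147686 to 122153083, plus strand in GRCm38) was among the most abundant transcripts of every cell. Its level was lowest in cell 6, at 9.45, with a median of 11.29 and a highest value of 13.82 in cell 12 (SD 1.27 over 14 cells). Cells 10 and 9 followed at 13.56 and 13.22. It was detected in 14 of 14 cells (exact Clopper-Pearson 95% interval 76.8% to 100%, counting error only). This interval treats the cells as separate draws, although they count as 1 sample. In cell 12 it ranked 2nd of all 9558 rows and in cell 6 it ranked 188th. Its level in the leukocyte-rich cells 11 and 14 was 11.28 and 11.14, close to the median.

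The transporter genes were far less often detected than the light chain they serve. Tap1 reached 4.76 in cell 8 and 4.03 in cell 10, was at 0 in 6 cells and had a median of 0.15, so that 2 cells had it detected. Tap2 was found in 3 cells and ranged from 0 in cell 3 to 2.91 in cell 14, with a median of 0.32. Cell 8 alone had both subunits detected, with Tap2 at 2.03. Both genes lie on chromosome 17, Tap1 at 34187553 to 34197225 and Tap2 at 34203527 to 34216321.

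Tapasin and its relative were found in every cell. Tapbp ranged from 2.01 in cell 14 to 6.35 in cell 2, with a median of 3.86. Tapbpl, the gene of the tapasin-like protein TAPBPR, ranged from 1.86 in cell 5 to 6.61 in cell 6, with a median of 3.28. All 14 cells therefore had both loading genes, at levels well under that of B2m. Part of the exons of Tapbp (24.9%) overlaps an antisense gene, and the sources used here do not say whether counting used the strand.

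Partners of this pathway outside the name rule were taken from a list of 14 genes, 13 of which had a row. Detection in 7 or more cells was found for 9 of these (69.2%), against 51.7% of all rows, and in every cell for 4, against 15.8%. The genes of the proteasome activator PA28, Psme1 and Psme2, had medians of 7.47 and 8.03. The chaperone genes Calr and Pdia3 had 6.26 and 4.36, also in all 14 cells. The immunoproteasome genes Psmb8, Psmb9 and Psmb10 were detected in 8, 7 and 8 cells, with medians of 1.20, 1.12 and 1.02. Psmb9, which shares a promoter region with Tap1, was highest in cell 14 at 6.60 and cell 9 at 6.27, where Tap1 was at 0 and 0.15. The trimming enzyme gene Erap1 was detected in 2 cells.

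Of interferon genes, Ifnb1, which encodes interferon beta, was the only one with a row. It was at 9.11 in cell 14 and at 2.46 or less in the 13 others, with a median of 0.39 and 5 cells detected. It was at 0 in all 5 cells of the smaller set described above. It has 1 exon in the annotation (chromosome 4, 88522025 to 88522774, minus strand). Cell 14 was also the cell highest in leukocyte genes and highest for Irf5, at 6.39, and for the endosomal RNA sensor gene Tlr7, at 7.14. The part of blood cell RNA in these values was not tested.

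Receptor subunits were unevenly detected. Ifnar2, one chain of the type I receptor, was detected in all 14 cells, from 1.74 in cell 11 to 7.60 in cell 12, with a median of 6.49. Ifnar1, the other chain, was detected in 9 cells, from 0.26 in cell 4 to 5.57 in cell 14, with a median of 1.59. For the interferon gamma receptor, Ifngr1 was detected in all 14 cells, from 2.21 in cell 8 to 7.33 in cell 1, with a median of 4.81.

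Its second chain, Ifngr2, split the cells. It was at 3.75 to 5.71 in cells 4, 7, 9, 10 and 13 and between 0.11 and 2.31 in the other 9, with a median of 1.79. Ifnlr1, of the interferon lambda receptor, was detected in cell 14 alone, at 3.96. For both receptor pairs 1 chain was thus found in every cell and its partner in 9 cells. Ifnar1, Ifnar2 and Ifngr2 lie in 1 stretch of chromosome 16 (91372783 to 91565623).

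Among the Stat genes, which encode signal transducers, Stat3 was the most widely found. Stat3, which serves cytokines of the interleukin-6 family, was detected in 13 cells, from 0.66 in cell 4 to 8.42 in cell 12, with a median of 5.19. Stat6, used by interleukin-4, was found in 8 cells, with 5.89 in cell 12.

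Stat2 was detected in 4 cells, led by cell 9 at 3.50 and cell 3 at 3.42. Stat2 was thus low in most cells, including the leukocyte-rich cells 11 and 14, which had 0.28 and 0. Stat5a was found in 2 cells, with 3.99 in cell 8, and Stat5b was detected in cell 10 alone, at 3.50. Of 11 measured signalling partners outside the rule, 8 (72.7%) reached detection in 7 or more cells, against 51.7% of all rows. The kinase gene Jak1 (median 5.29) and the feedback inhibitor gene Socs3 (median 5.26) were detected in all 14.

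Among the Irf genes, Irf1 was the one found in every cell. It ranged from 1.49 in cell 4 to 8.79 in cell 9, with a median of 5.62. Irf3, the factor that acts downstream of nucleic acid sensors, was found in 12 cells and had a median of 2.78. Cells 6, 13 and 9 had 10.88, 7.27 and 7.10, while cell 3 had 0. Irf2, a relative of Irf1 that can repress its targets, was found in 7 cells, with 7.46 in cell 12.

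Irf7 and Irf9, which belong to the type I interferon loop, were rarer. Irf7 was found in 4 cells, 11, 14, 3 and 12, at levels of 6.00, 4.43, 1.94 and 1.06. Irf9 was detected in 6 cells, led by cell 3 at 6.87, and was at 0.53 in the median. Irf5, a myeloid Irf, was detected in cell 14 alone, and 14.1% of its exon bases overlap Tnpo3 on the other strand. Irf2bpl was detected in 9 cells, Irf2bp2 in 4 and Irf2bp1 in 2, with highest levels of 5.89, 4.48 and 2.97, and 20.5% of the exon bases of Irf2bp2 overlap an antisense gene.

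**Figure D2:**
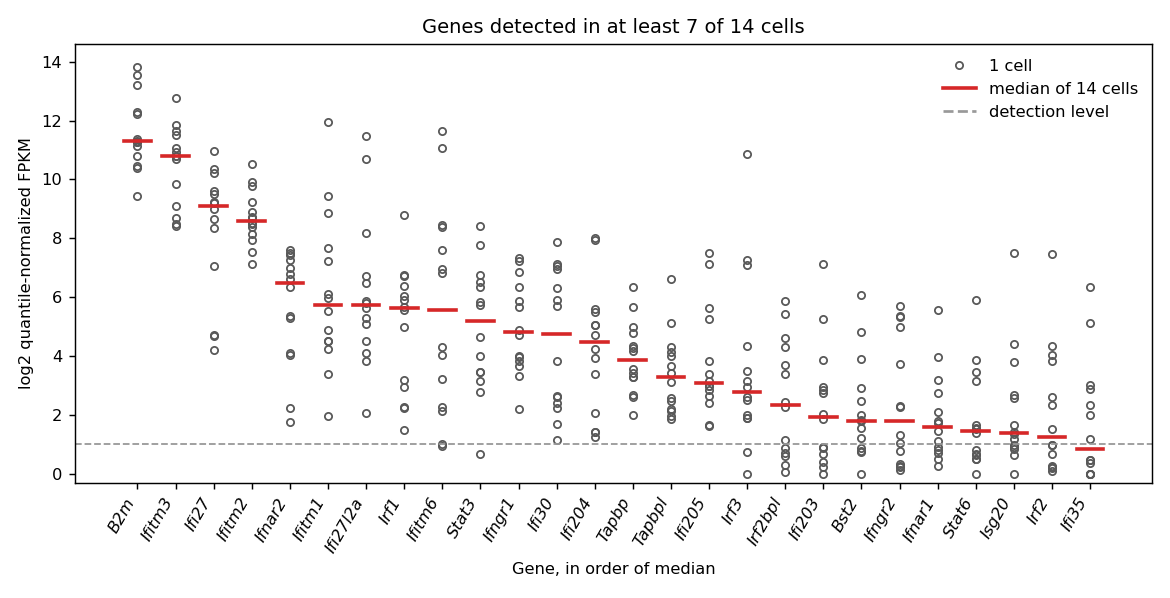
Level in each cell (open circles) and median over 14 cells (red bars) of the 26 genes detected in at least 7 cells, on the log2 quantile-normalized FPKM scale, with the detection level of 1 dashed. B2m and Ifitm3 lie above 8 in every cell, and Ifitm2 above 7, while Irf3 ranges from 0 to 10.88.

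The Ifitm genes encode small membrane proteins, several of which restrict virus entry, and Ifitm3 had the second highest median of the 55 genes, after B2m. Ifitm3 ranged from 8.43 in cell 10 to 12.77 in cell 9, with a median of 10.79, and was detected in all 14 cells. Ifitm2 ranged from 7.12 in cell 10 to 10.51 in cell 11, with a median of 8.60 and an SD of 0.92. Both were lowest in cell 10 and neither fell below 7 in any cell. In Ifitm2, 36.1% of the 50-base words of the transcripts also occur in an overlapping gene model, so its level may include reads of that model.

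Ifitm1 and Ifitm6 varied far more. Ifitm1 ranged from 1.96 in cell 10 to 11.97 in cell 11, with a median of 5.75. Ifitm6 ranged from 0.94 in cell 5 to 11.64 in cell 11, with a median of 5.56 and an SD of 3.56, the largest of the 55 genes. Both had cells 11 and 14 as their 2 highest, as did Irf7 and Irf2bp2, an order found in 2.48% of all rows.

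Without cells 11 and 14, Ifitm1 and Ifitm6 had highest levels of 8.85 and 8.44 and medians of 5.22 and 4.18. Over the 14 cells, which share 1 table and preparation, the rank correlation of Ifitm6 with the leukocyte list mean was 0.67, and 0.49 over the 12 other cells. For Ifitm3 these were 0.35 and 0.32, and for B2m 0.01 and 0.09. Bst2 had 0.71 and 0.66, Ifitm1 0.64 and 0.44, and Ifi27l2a 0.58 and 0.53, whereas Ifi202b had -0.52 and -0.55. Over the 14 cells Bst2 and Ifi202b had the highest and lowest such values among the genes of the rule, so they are extremes of many correlations. The share of all rows with such values was not computed. What part blood cell RNA had in the levels of these genes was not tested. Ifitm10 was found in 4 cells, with 6.30 in cell 11. Ifitm1, Ifitm2, Ifitm3 and Ifitm6 lie within 1 cluster on chromosome 7 (140954837 to 141017924), from which Ifitm10 stands apart.

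**Figure D3:**
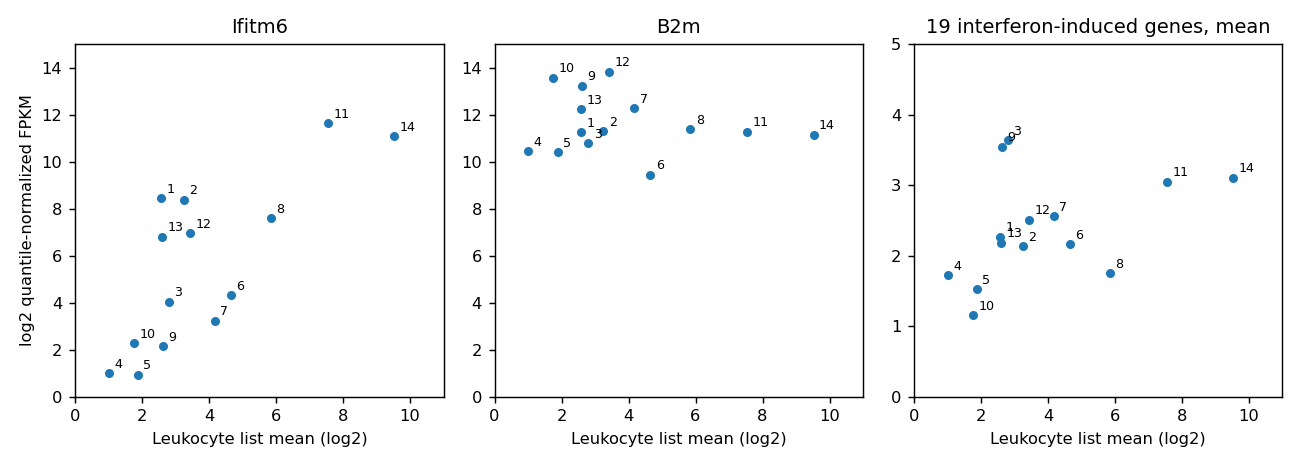
Levels of Ifitm6 (left) and B2m (middle) and the mean of the 19 interferon-induced genes (right, own axis range) against the mean of the 12 leukocyte genes, 1 numbered point per cell, all on the log2 scale. Ifitm6 is highest in cells 11 and 14, which lie farthest right, while B2m in these cells lies within the range of the others.

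Among the 19 other interferon-induced genes, 9 reached detection in 7 or more cells, against 51.7% of all rows. Detection in every cell was found for 5, against 15.8% of all rows, namely Ifi27, Ifi27l2a, Ifi30, Ifi204 and Ifi205. Ifi27, which encodes a small hydrophobic protein, ranged from 4.19 in cell 3 to 10.96 in cell 7, with a median of 9.09. Cells 3, 11 and 2 had 4.19, 4.68 and 4.72, and the other 11 cells had 7.07 or more. Its neighbour Ifi27l2a ranged from 2.07 in cell 4 to 11.46 in cell 14, with a median of 5.73 and 10.69 in cell 3. Cell 3 thus had the lowest Ifi27 and the second highest Ifi27l2a of all cells.

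Ifi30, a lysosomal thiol reductase gene of antigen processing, ranged from 1.13 in cell 10 to 7.87 in cell 11, with a median of 4.76. Outside the leukocyte-rich cells, cells 1, 7 and 9 had 7.14, 7.06 and 6.95. Class II chains had no row, and of 4 measured class II partner genes Cd74, the invariant chain gene, was detected in 6 cells with a highest level of 4.48 in cell 11. Cell 11 was thus highest for both genes, whereas in cells 1, 7 and 9 Cd74 was at 0, 0.90 and 0.38.

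The Ifi200 genes, which encode nucleic acid binding proteins, lie together on chromosome 1 (173747293 to 174031810). Ifi204 ranged from 1.24 in cell 4 to 8.0 in cell 3, with a median of 4.49, and cell 2 had 7.94. Ifi205 ranged from 1.63 in cell 10 to 7.5 in cell 2, with a median of 3.07, and cell 3 had 7.14. Cells 2 and 3 were the 2 highest for both genes. The rank correlation of the pair over the 14 cells was 0.70, and 14.8% and 18.5% of their 50-base words occur in Ifi211, so part of the reads may be shared.

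Ifi202b had another pattern in the same cluster. It was at 4.64 to 6.96 in cells 1, 3, 4, 5 and 9 and between 0 and 0.98 in the other 9 cells, with a median of 0.75. Cells 4 and 5, which had 5.17 and 4.64, were the highest cell for none of the 55 genes. Ifi203, found in 8 cells, had its highest levels of 7.13 and 5.25 in cells 9 and 14.

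Bst2, the gene of tetherin, which holds budding viruses at the membrane, was detected in 10 cells. Cells 9 and 8 had 6.06 and 4.83 and cell 10 had 0, around a median of 1.81. Isg20, an exonuclease gene, was found in 9 cells, with 7.52 in cell 14. Ifi35 was found in 7 cells, with 6.33 in cell 12, and 16.8% of its exon bases overlap an antisense gene.

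The antiviral effector genes most used as signs of a type I interferon response were each found in few cells. Detection in fewer than 7 cells was common in the table, with 4619 of the 9558 rows. Isg15, a ubiquitin-like modifier gene, was detected in cells 3, 11, 13, 12 and 6, whose levels were 8.16, 3.73, 2.63, 2.31 and 1.56. Its median was 0.70, and it was at 0 in 6 cells. It was above 0 in all 5 cells of the smaller set and in 3 of the 9 others. Ifi47 (5 and 3) and Gbp7 (5 and 2) had a like split, and Ifnb1 (0 and 7) the reverse. The share of all rows with such a split was not computed, and what separates these sets was not tested. Ifit2 was detected in cells 12, 11 and 4, at 3.73, 3.10 and 1.52.

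Ifit3 and Ifit3b peaked in cell 7, at 5.75 and 4.91, where Isg15 and Ifit2 were both at 0. They share 51.2% and 44.5% of their 50-base words, so the pair cannot be taken as 2 separate measurements. Oas1b reached 8.08 in cell 11 and was at 1.48 or less elsewhere. Oasl2 reached 5.41 in cell 3 and 3.62 in cell 9, and Oas2 was detected in cell 9 alone, at 3.09. Ifih1, the gene of the RNA sensor MDA5, was detected in cell 13 alone, at 4.49. No cell had all of these genes, and their highest cells were 3, 7, 9, 11, 12 and 13.

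The guanylate-binding protein genes, targets of interferon gamma in many cells, were each detected in 1 to 3 cells. Gbp2 reached 4.57, Gbp3 3.37 and Gbp5 2.90 in cell 9, and Gbp5 was at 3.62 in cell 6. Gbp7 was detected in cell 12 alone, at 4.25, and Gbp2b in cell 14 alone, at 3.74. The mean over the 5 genes was 2.17 in cell 9 and between 0.09 and 1.19 in the 13 others. The interferon-inducible GTPase genes Ifi47 and Igtp were also highest in cell 9, at 5.09 and 5.30.

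Cells 3 and 9 had the highest means of the 19 interferon-induced genes, 3.64 and 3.54. Both cells were the 2 highest for Ifi202b (6.96 and 6.84), Oasl2 (5.41 and 3.62), Stat2 (3.42 and 3.50) and Ifi47 (2.00 and 5.09). These genes were picked after their values had been seen, and Ifi202b, Oasl2 and Ifi47 are part of the mean. The share of all rows with these cells as the 2 highest was not computed. Other genes, also picked after their values had been seen, differed between them. In cell 3, Isg15 and Irf9 stood at 8.16 and 6.87, and outside the rule Rsad2 at 6.60 and the chemokine gene Cxcl10 at 12.22, whereas its Gbp mean was 0.45. In cell 9 Isg15 was at 0.62 and Rsad2 at 0.11, while Irf1 was at 8.79, Zbp1 at 6.60, Cxcl10 at 9.22 and Irf9 at 3.03. Leukocyte list means in these cells were 2.80 and 2.61, below the median of 3.03 over the 14 cells, and the stromal means were 6.35 and 10.07. A B cell list of 5 measured genes had means of 3.33 in cell 3 and 1.36 in cell 9. Its median over the 14 cells was 1.81, and only cell 11 was above cell 3, at 4.29. Most of the mean in cell 9 came from Ebf1, which was detected in 12 cells. Ebf1 was at 6.52 in cell 3 and 5.93 in cell 9. Cd79a and Igkc were at 1.865 and 3.89 in cell 3 and both at 0 in cell 9. Ms4a1 and Ighm were at 2.13 and 2.25 in cell 3, and at 0.58 and 0.30 in cell 9. What part blood cell RNA had in the levels of these cells was not tested. No test of a difference between 2 single cells was possible.

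The 29 genes detected in fewer than 7 cells, of which Irf2bp1 and Irf2bp2 match by name alone, were counted by cell. Cell 9 had 14 of them, including both of these (48.3%), against 26.3% of the 4619 rows of the table that were detected in fewer than 7 cells. Cell 11 had 12 (41.4%, against 21.3%), cell 3 had 10 (34.5%, against 21.3%) and cell 14 had 10 (34.5%, against 25.8%). Cells 5 and 10 had 2 each (6.90%), against 30% and 24.2%. Cell 12, with 7 (24.1%, against 23.4%), was near the share of all rows. The number of rare genes detected thus ranged from 2 to 14 per cell, a spread that was not tested.

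**Figure D4:**
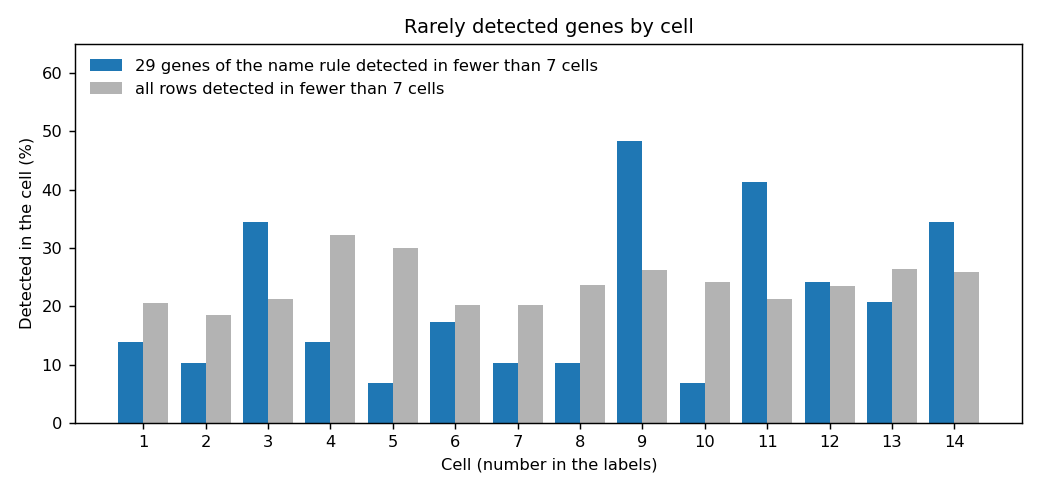
Percentage of the 29 genes of the name rule detected in fewer than 7 cells that were detected in each cell (blue), beside the same percentage over the 4619 rows of the table detected in fewer than 7 cells (grey). Cell 9 reaches 48.3% against 26.3%, and cell 5 only 6.90% against 30%.

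The cell in which each gene was highest was also counted. Cells 9 and 14 were each highest for 9 of the 55 genes (16.4%), against 6.58% and 8.09% of all rows. Cells 11 and 12 were each highest for 8 (14.5%), against 7.49% and 5.93%. Cell 3 was highest for 5 (9.09%), against 9.08%, so its share was that of all rows. Cells 4 and 5 were highest for 0 genes, against 4.6% and 4.75% of all rows. Between 20 genes in cell 5 and 38 in cell 9 were detected per cell, with a median of 27. Over the 406 pairs of the 29 interferon-induced, Ifitm and Gbp genes, the median rank correlation was 0.16, against 0.00 over all pairs of rows.

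The class I side was set against the interferon-induced side within each cell. The mean of the 5 class I genes exceeded the mean of the 29 interferon-induced, Ifitm and Gbp genes in all 14 cells, by a median of 1.18 (SD 0.998, range 0.13 in cell 9 to 3.88 in cell 10). B2m alone carried this order. Without it the median was -0.78, with 3 cells positive, a setting chosen after the values had been seen.

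Interferon-stimulated genes whose names fall outside the rule gave a background from the same response. Rows existed for 29 of 42 such genes. Of these, 15 (51.7%) reached detection in 7 cells or more, against 51.7% of all rows. Detection in every cell was found for 7, against 15.8% of all rows. Ly6a, the gene of the surface antigen Sca-1, had a median of 10.71, Cd47, which restrains phagocytes, had 7.37, and Ly6e, which limits virus entry, had 7.13. Shisa5, Xaf1, Cxcl10 and Lgals3bp were the other 4 found in every cell. The list mean was highest in cell 9, at 3.69, and cell 14, at 3.54, and lowest in cell 10, at 1.57. Of 10 measured sensing genes, 3 (30.0%) reached detection in 7 or more cells, against 51.7% of all rows. Ddx58, the gene of the RNA sensor RIG-I, was detected in all 14 (median 4.67, highest 9.78 in cell 6).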

How the data were processed

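Transcript levels were measured in 14 single cells, with the SMART-Seq v4 3' DE kit and Nextera XT per the labels' protocols. The submitters' processing notes list TopHat2, Cufflinks and GRCm38 without versions. The deposited values are on a log2 scale, read from the values as log2(FPKM + 1) after quantile normalization: the largest value was 14.58 in every cell, and 5066 rows reached 1 in each. Neither step nor the choice of rows is recorded, and the table holds no counts, so depth is unknown. FPKM divides by transcript length, which understates long genes in a 3' library. All 14 columns were matched by title, with 0 left over.

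The name rule was applied to the symbols, and positions came from GENCODE M21 by gene ID (55 of 55 matched). The members and all lists were chosen with earlier results of these data known. 1 gene of the rule enters the counts but is not reported here by name or in figures. Lowest, median and highest levels were given for the 12 with the highest median and the 12 with the largest SD. They were also given for those of 12 set pathway genes that had a row and are reported here. H2-K1 and H2-D1 of that set had no row. Detection was a level of 1 or more. Shared sequence was counted as 50-base words of GENCODE transcripts, and motifs were searched in RefSeq promoters. Analyses used Python 3.11.15, pandas 2.3.3 and scipy 1.17.1, and counting, list differences and motif search were tested on simulated data. The planned protein comparison was not made. Alternatives were other detection levels, pseudocounts, left-out cells, undone length division, ranks and medians.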

Additional observations from a re-analysis of the deposited data

How the results depend on the processing

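No test was run, so the alternatives show how far values move. Genes detected in at least 7 cells went from 26 (47.3%) to 48 (87.3%) when any value above 0 counted. They went to 17, 14 and 11 (30.9%, 25.5% and 20.0%) when detection needed an FPKM of 5, of 10, or a log2 value of 5. All rows went from 51.7% to 86.8%, 28.7%, 21.5% and 13.4%, so which share was higher depended on the detection level. Genes in all 14 cells numbered 24, 4, 4 and 3 at the same settings (43.6%, 7.27%, 7.27% and 5.45%), against 14 (25.5%). All rows here went from 15.8% to 46.0%, 6.21%, 4.24% and 2.46%. The median number per cell was 45.5, 21, 17 and 12.5, against 27. Leaving out cells 11 and 14, cells 6, 8, 11 and 14, or the 3 genes matched by name alone kept the first count between 25 and 26, the second at 14 and the third at 25.5. The class I minus interferon-induced difference became 9.07 percentile points on ranks (10 cells positive). With each cell left out in turn it was 1.06 to 1.30, a range that follows from taking a median. Other pseudocounts, gene filters, length scaling and left-out cells, and list medians, gave 0.89 (pseudocount 10) to 1.77 (list medians), against 1.18, but it was positive in 12 of 14 cells with a pseudocount of 0.1 and in 13 with genes detected in at least 7 cells or with list medians. Without B2m it turned to -0.78. Without the Ifitm genes it was 1.93. No paired analysis was possible because there is 1 group. The unknown depth limits what a level of 0 means.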

Other observations

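B2m had its lowest levels of 9.45, 10.40 and 10.44 in cells 6, 5 and 4 and its highest in cells 12, 10 and 9. Immediate early genes such as Fos, Junb and Egr1, set as a list of 10, had their lowest means in cells 4 and 5, at 3.07 and 4.62, and their highest in cell 10, at 8.51. Over the 14 cells the rank correlation of B2m with this list mean was 0.89 (Pearson 0.70). It was 0.87 (Pearson 0.80) without cells 4 and 5, the farthest from the median of the list, and 0.92 (Pearson 0.69) without cells 11 and 14. Irf1 had 0.76 (Pearson 0.74), and 0.62 (Pearson 0.56) without cells 4 and 5. Stat3 had 0.35 (Pearson 0.58), and 0.04 (Pearson 0.07) without these cells. Ifnar2 had 0.53 (Pearson 0.41), and 0.42 (Pearson 0.54) without them. B2m was picked out after 28 such correlations between 7 groups of these genes and 4 lists had been seen. The cells share 1 table and were normalized together, so these values are a description.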
